A study of Mus musculus with 6 samples.

Results

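Complement components and Fc receptors were examined in RNA sequencing of mouse hippocampus. The genes were chosen by symbol from a list of 10 (C1qa, C1qb, C1qc, C3, C4b, C1ra, Fcgr1, Fcgr2b, Fcgr3 and Fcgr4). Of these, 6 are among the 3733 genes of the deposited table, which gives them as C1qa (gene ID 12259), C1qb (12260), C3 (12266), C4b (12268), C1ra (50909) and Fcgr4 (246256). C1qc, Fcgr1, Fcgr2b and Fcgr3 were not analysed here. The study has 3 groups of 2 libraries each: PIA+IL-27, PIA and Control. PIA is the postnatal immune activation named in the study's title. The design text calls the same groups LPS+rIL-27, LPS and control, where LPS is bacterial lipopolysaccharide and rIL-27 is recombinant interleukin 27. The sources used here give no strain, age, sex, dose or time of treatment, and do not say whether a library is 1 animal or a pool. Nothing in the labels says that the 2 libraries of a group came from separate animals, so p-values cover only the spread between these libraries.

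Complement is a cascade of blood and tissue proteins that tags targets for removal. In its classical pathway the recognition protein C1q, built from the products of C1qa, C1qb and C1qc, activates the proteases C1r and C1s, which cleave C4 and C2. The resulting enzyme cleaves C3, whose fragments bind to the target and are read by receptors on phagocytes. In the brain C1q is made mainly by microglia, C4 and C3 are also made by astrocytes, and complement proteins take part in the removal of synapses during development. Fc receptors bind the constant part of antibodies. Fcgr4 encodes a mouse activating receptor for IgG on myeloid cells that signals through the Fc receptor gamma chain.

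Promoter sequences are shown for the members because these genes followed 2 different patterns across the libraries. RefSeq, on build GRCm38.p6, gave an entry for 4 of the 6 members, and the 250 bases before the annotated start are printed 5′ to 3′ on the gene's strand. Capitals mark matches, on either strand, to motifs searched by their letters: the core of the interferon-stimulated response element (GAAA, any 2 bases, GAAA), the interferon gamma-activated site bound by STAT factors (TTCNNNGAA), a site of ETS factors such as PU.1 (AGGAAGT), a form of the C/EBP site (TTGCNNAA) and the TATA box (TATAAA). The Fcgr4 window lies at chr1:171018676-171018925 on the plus strand, the C3 window at chr17:57228137-57228386 on the minus strand, the C1ra window at chr6:124512371-124512620 on the plus strand and the C1qb window at chr4:136886201-136886450 on the minus strand.
Fcgr4: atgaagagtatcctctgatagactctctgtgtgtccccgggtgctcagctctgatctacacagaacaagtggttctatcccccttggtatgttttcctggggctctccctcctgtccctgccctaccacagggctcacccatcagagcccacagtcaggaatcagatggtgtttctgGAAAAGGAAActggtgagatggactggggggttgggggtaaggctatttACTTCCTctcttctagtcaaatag
C3: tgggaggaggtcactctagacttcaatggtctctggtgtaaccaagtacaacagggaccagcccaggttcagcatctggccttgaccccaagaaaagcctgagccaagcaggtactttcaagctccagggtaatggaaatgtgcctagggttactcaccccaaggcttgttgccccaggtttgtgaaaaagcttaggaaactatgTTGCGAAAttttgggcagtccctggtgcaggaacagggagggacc
C1ra: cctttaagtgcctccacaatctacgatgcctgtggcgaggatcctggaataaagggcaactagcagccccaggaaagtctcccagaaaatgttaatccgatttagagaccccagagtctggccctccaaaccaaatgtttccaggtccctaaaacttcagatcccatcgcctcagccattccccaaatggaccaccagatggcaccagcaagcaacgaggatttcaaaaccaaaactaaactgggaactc
C1qb: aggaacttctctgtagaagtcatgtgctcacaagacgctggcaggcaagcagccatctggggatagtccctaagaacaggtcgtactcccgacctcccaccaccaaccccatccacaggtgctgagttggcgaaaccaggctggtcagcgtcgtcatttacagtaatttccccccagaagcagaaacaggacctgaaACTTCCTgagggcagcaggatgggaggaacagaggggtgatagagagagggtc
Fcgr4 held a response element core, GAAAAGGAAA, from 73 to 64 bases before the start and an ETS match, on the opposite strand, from 24 to 18 bases before it. C3 held the C/EBP match TTGCGAAA from 45 to 38 bases before the start. C1qb held an ETS match, also on the opposite strand, from 53 to 47 bases before the start, and the C1ra window held none of the 5 motifs. None of the printed matches overlapped another. Among 27025 promoter windows of the same length, 1 per gene, 3.04% held the response element core, 7.18% the STAT site, 7.80% the ETS site, 9.55% the C/EBP form and 13% the TATA box. These matches are letters in a window and were not tested as binding sites.

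The 3733 listed genes each have, in some comparison of the authors, a Q value no higher than 0.05 and a change of 1 or more log2 units in either direction. The table was therefore selected on these libraries, and shares of listed genes are not shares of the genome. Reads in listed genes numbered 641672 to 1593441 per library, and the listed genes held 2.14 to 5.61% of a library's TPM. Libraries of a group differed in composition. The choroid plexus gene Ttr had 6.26 and 649 normalized read counts in PIA+IL-27, 11302 and 141 in PIA, and 78.4 and 58611 in Control. Of 5 dentate granule cell markers, a check of the hippocampal label, 3 are in the table, and they did not share an order. Prox1 was lowest in PIA+IL-27 1 (172) and PIA 2 (96.0) and reached 590 to 1358 in the other 4 libraries. Dsp was lowest in the same libraries (16.7 and 6.55). Stxbp6 instead was highest in PIA+IL-27 1 (709) and lowest in Control 1 (118). Summed over 4 Y-linked genes, normalized read counts were 1476 and 6.80 in PIA+IL-27, 541 and 594 in PIA, and 2.94 and 9.52 in Control, so treatment and this difference cannot be told apart in PIA against Control.

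The C1q subunit genes were the most abundant members per transcript length. C1qa had 90.01 and 51.0 TPM (transcript abundance scaled by length and library) in PIA+IL-27, 82.5 and 191 in PIA, and 93.2 and 48.7 in Control. C1qb had 91.2 and 46.1 TPM in PIA+IL-27, 101 and 159 in PIA, and 90.1 and 43.0 in Control. C4b, the mouse complement C4 gene, followed with a median of 14.7 TPM over the 6 libraries, within a range of 5.92 to 36.0. Fcgr4 had a median of 4.10 TPM (0.72 to 15.1), C3 of 2.57 (0.42 to 14.4) and C1ra of 2.12 (0.35 to 12.3). The ranges of Fcgr4, C3 and C1ra overlap nearly in full, so their order in TPM is not larger than their spread. The ranges of C1qa and C1qb also overlap nearly in full.

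Normalized read counts, the authors' read counts divided by 1 factor per library, separated the members into 2 patterns. C1qa had 627 and 355 normalized read counts in PIA+IL-27, replicates 1 and 2, 623 and 1501 in PIA, and 702 and 317 in Control. PIA 2 alone stood above the rest, while PIA 1 lay within the range of Control. C1qb had 654 and 330.1 in PIA+IL-27, 782 and 1285 in PIA, and 699 and 289 in Control, so both PIA libraries lay above the other 4. C4b, the substrate of the C1 proteases, had 727 and 274 in PIA+IL-27, 725 and 1906 in PIA, and 779 and 285 in Control. Like C1qa, it was high in PIA 2 only.

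The other 3 members were highest in PIA 1. C3, the central component on which all activation routes converge, had 62.6 and 10.7 normalized read counts in PIA+IL-27, 460.3 and 121 in PIA, and 186 and 18.1 in Control. Every PIA+IL-27 value was under every PIA value, and PIA 2 was under Control 1. C1ra, which encodes the C1r protease, had 35.5 and 7.77 in PIA+IL-27, 301 and 80.7 in PIA, and 67.6 and 11.4 in Control. Fcgr4 had 16.7 and 8.74 in PIA+IL-27, 139 and 81.8 in PIA, and 57.8 and 5.71 in Control. For C1ra and Fcgr4 both PIA libraries lay above the other 4. Control 1 exceeded Control 2 at all 6 members, by 2.21-fold for C1qa to 10.3-fold for C3. PIA+IL-27 1 likewise exceeded PIA+IL-27 2 at all 6, by 1.76-fold for C1qa to 5.86-fold for C3.

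**Figure D1:**
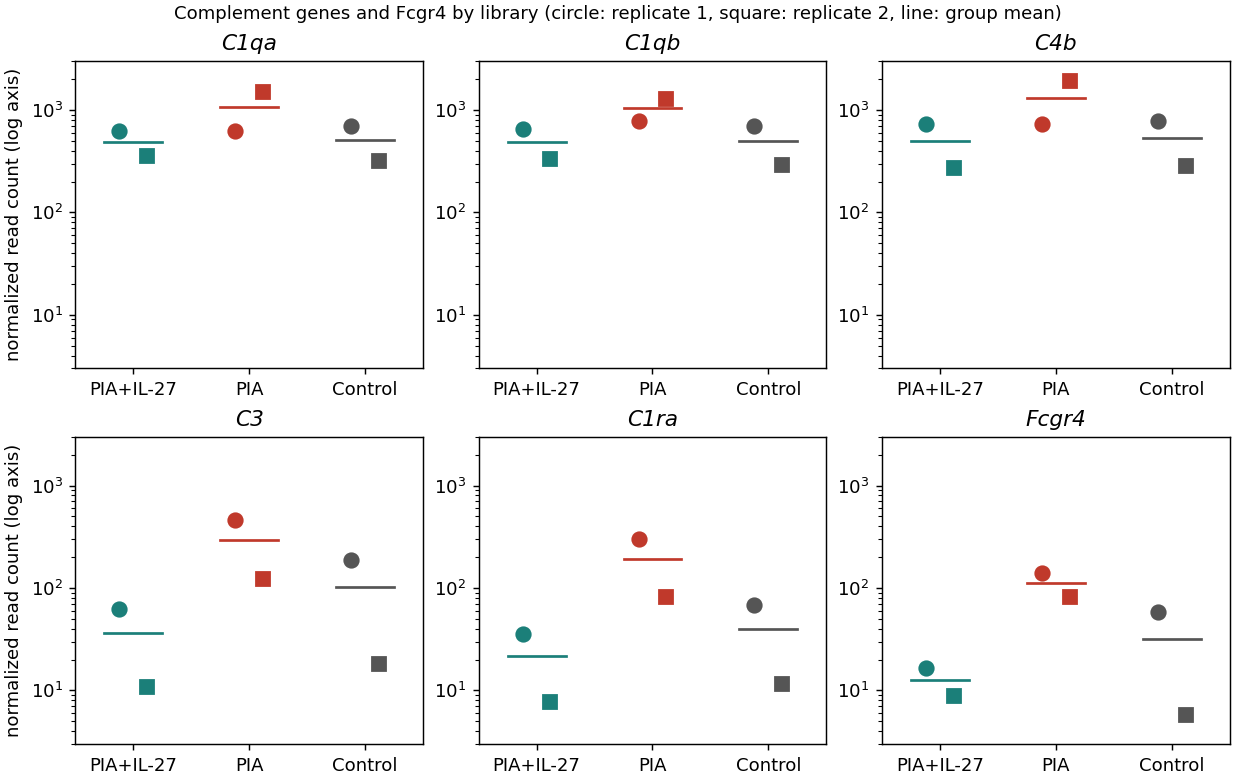
Normalized read counts (log axis) of the 6 members in PIA+IL-27, PIA and Control; circles are replicate 1, squares replicate 2 and lines the group means. C1qa, C1qb and C4b are highest in PIA 2 (1501, 1285 and 1906), and C3, C1ra and Fcgr4 in PIA 1 (460.3, 301 and 139).

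Ratios within a library, which no scaling of libraries can change, showed the same division. The TPM ratio of C1qa to C1qb stayed between 0.819 and 1.20 over the 6 libraries, and that of C4b to C1qa between 0.116 and 0.189. C3 relative to C1qa was 0.0236 and 0.00823 in PIA+IL-27, 0.174 and 0.0158 in PIA, and 0.05 and 0.0160 in Control, a span of 21.1-fold. C1ra relative to C1qa spanned 21.7-fold and Fcgr4 relative to C1qa 12.4-fold, both with their highest value in PIA 1 (0.149 and 0.183). Against each other C3 and C1ra kept a TPM ratio of 0.953 to 1.71. These ratios are descriptions of 6 libraries, and a division by C1qa says nothing of the level of C1qa itself.

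**Figure D2:**
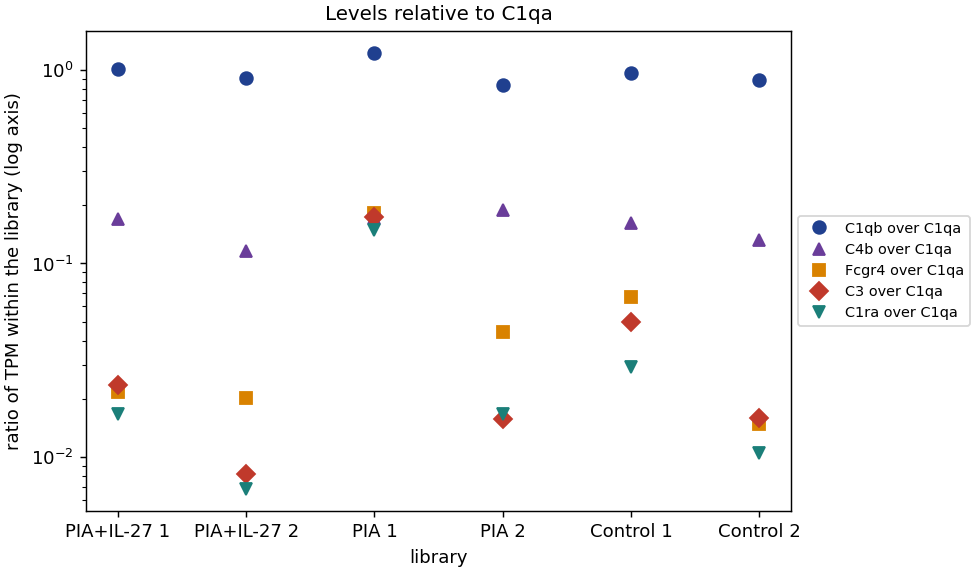
TPM of C1qb, C4b, Fcgr4, C3 and C1ra divided by TPM of C1qa in the same library (log axis), 1 symbol per library. C1qb and C4b stay near level, while Fcgr4, C3 and C1ra are highest in PIA 1, at 0.183, 0.174 and 0.149.

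PIA against Control addresses what immune activation alone did. All 6 members had a fitted log2 fold change above 0, with a median of 1.41, against a median of -0.68 over the 3216 genes tested. None passed the test over all genes (edgeR quasi-likelihood test, Benjamini-Hochberg adjusted p under 0.05). That test called 0.218% of the genes tested, DESeq2 called 0 members and 0.0622% of genes, and 1 of 6, C1ra, had an unadjusted p under 0.05. C1ra had the largest fitted change of the members, 2.28 ± 0.994 (log2, SE, n = 2 per group; adjusted p = 0.617, edgeR). Fcgr4 followed with 1.80 ± 1.02 and C3 with 1.51 ± 0.939, both at the same adjusted p in edgeR. C4b had 1.31 ± 0.849, C1qb 1.07 ± 0.852 and C1qa 1.06 ± 0.851, also at that adjusted p. The PIA values all exceeded the Control values for 3 of 6 members (C1qb, C1ra and Fcgr4), and 17.2% of the 3733 listed genes separated in that direction. None of the members separated the other way, as 16.5% of listed genes did. In whole tissue, fewer cells of a type and less RNA per cell cannot be told apart.

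The size of these differences depended on single libraries. Without Control 2 the fitted log2 changes were 0.56 (C1qb) to 1.49 (C1ra), and without Control 1 they were 1.74 (C1qa) to 4.25 (Fcgr4). Without PIA 1 the change of C3 was 0.25 and that of C1ra 1.05. Without PIA 2 that of C1qa was 0.29 and that of C4b 0.45. The authors' deposited table lists 4 of the 6 members as higher in PIA (C3, C4b, Fcgr4 and C1ra), beside 18.0% of listed genes, and none as lower, beside 34.4%. In the authors' deposited table C1qa has a log2 fold change of 0.951 with a Q value of 1.95e-69, and C1qb of 0.974 with a Q value of 4.21e-71. The test behind those Q values is not given in the sources used here, and the replicates of C1qa differed by 2.41-fold in PIA and 2.21-fold in Control.

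PIA+IL-27 against PIA addresses what the cytokine added to immune activation. It shares the PIA libraries with the comparison above, so opposite signs in the 2 comparisons are not independent of each other. All 6 members had a fitted log2 fold change below 0, with a median of -2.19, against 1.17 over all genes tested. In edgeR 0 members passed, where 0.435% of genes tested were called, and 3 of 6 had an unadjusted p under 0.05. Those 3 were C1ra at -3.17 ± 1.04 (adjusted p = 0.184, edgeR), Fcgr4 at -3.11 ± 1.08 (adjusted p = 0.226) and C3 at -2.99 ± 0.997 (adjusted p = 0.203). DESeq2, which called 8.58% of the genes, called the same 3: C1ra (-4.33, adjusted p = 0.0185), Fcgr4 (-4.31, adjusted p = 0.0192) and C3 (-4.15, adjusted p = 0.0330). Its factors come from the listed genes, and they moved the median of all genes to -0.01 from the 1.17 that the authors' factors gave. With only the 4 libraries of the comparison, edgeR called 14.9% of genes and 1 member, Fcgr4 (-3.11, adjusted p = 0.0493).

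The smaller changes were those of C4b, -1.39 ± 0.851 (adjusted p = 0.290, edgeR), C1qa, -1.11 ± 0.852 (adjusted p = 0.332) and C1qb, -1.07 ± 0.852 (adjusted p = 0.339). The PIA+IL-27 values were all under the PIA values for C1qb, C3, C1ra and Fcgr4, 4 of 6, while 16.5% of listed genes separated in that direction and 57.1%, but no member, in the other. For C1qa and C4b the overlap was narrow, since PIA+IL-27 1 stood just above PIA 1, at 627 against 623 and at 727 against 725. Without PIA 2 the changes of C1qa and C4b were -0.34 and -0.54, and without PIA+IL-27 2 they were -0.76 and -0.86. Those of C3 and C1ra were -1.72 and -1.93 without PIA 1. The authors' deposited table lists all 6 members as lower in PIA+IL-27, beside 18.2% of listed genes, whereas it lists 61.4% of them as higher. C1qa and C1qb reach the authors' limit of 1 log2 unit in this comparison only. Their deposited values are 0.951 and 0.974 in PIA against Control, and -0.0735 and -0.0274 in PIA+IL-27 against Control. Being in the table at all thus required C1qa and C1qb to be listed here, so their part in that count is no separate result.

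GC content moved with these comparisons. The members' transcripts are GC-rich: 59.5% for C1qa and 57.4% for C1qb, higher than 96.5% and 92.8% of the listed genes, and 55.3% for C4b, 53.3% for C3, 50.9% for C1ra and 48.2% for Fcgr4, against a median of 44.9%. Over 3117 tested genes with a transcript, GC content and the log2 ratio of PIA+IL-27 to PIA had a Spearman rho of -0.665. This is a correlation over genes that share 4 libraries, not over replicates. The 812 genes with a GC content of at least 50% had a median log2 ratio of -0.99. For PIA to Control the rho was 0.350, and the same 812 genes had a median log2 ratio of 0.88. For PIA+IL-27 to Control the rho was -0.543 and that median -0.32. Between the replicates of Control, as the log2 ratio of Control 1 to Control 2, the rho was 0.541. The replicates of the other groups showed less of this trend. The rho was 0.168 for PIA 2 to PIA 1 and 0.00932 for PIA+IL-27 1 to PIA+IL-27 2. With GC and length trends removed per library, C1qa stood at 0.45 ± 0.417 and C1qb at 0.27 ± 0.382 in PIA+IL-27 against PIA, on the other side of 0 (adjusted p = 0.731 and 0.835, edgeR). In PIA against Control they were then at 0.06 ± 0.416 and 0.24 ± 0.382. C3, C1ra and Fcgr4 kept -2.66, -2.86 and -3.05 in PIA+IL-27 against PIA after the same step, with adjusted p of 0.573, 0.567 and 0.567 in edgeR. In PIA against Control they had 1.24, 2.08 and 1.64. C4b lay between, at -0.84 and 0.88. Such a step removes any difference, of whatever source, that follows GC content.

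**Figure D3:**
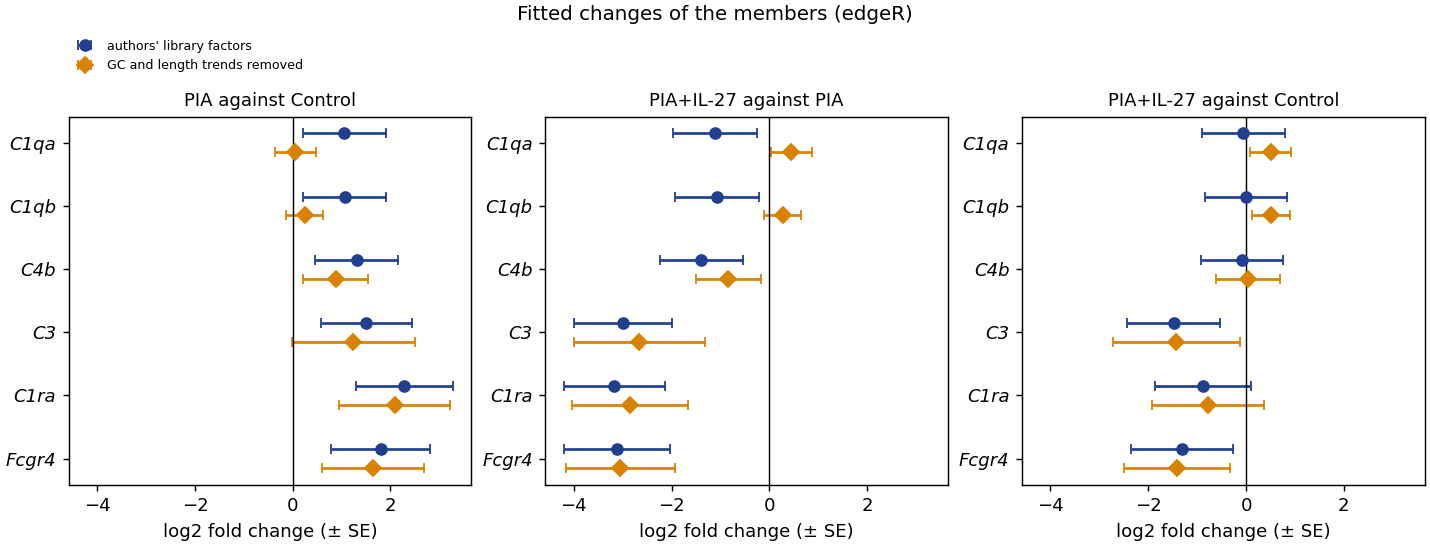
Log2 fold changes (edgeR, bars ± SE) of the 6 members in the 3 comparisons, with the authors' library factors (circles) and with GC and length trends removed (diamonds). In PIA+IL-27 against PIA, C1qa and C1qb lie at -1.11 and -1.07 with the authors' factors and at 0.45 and 0.27 with the trends removed, while C3, C1ra and Fcgr4 lie below -2.6 in both.

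With the authors' library factors, PIA+IL-27 against Control gave fitted log2 changes near 0 for the C1q and C4 genes. C1qa was at -0.05 ± 0.842, C1qb at -0.01 ± 0.843 and C4b at -0.09 ± 0.836 (n = 2 per group; adjusted p = 0.974, 0.997 and 0.957, edgeR). With TMM factors over the listed genes the same 3 stood at -1.16, -1.14 and -1.26, and in DESeq2 at -1.13, -1.11 and -1.22, again without passing. Each SE is large enough that sizeable changes in either direction could not be detected. C3 stood at -1.48 ± 0.952, Fcgr4 at -1.31 ± 1.04 and C1ra at -0.89 ± 0.982 (adjusted p = 0.835 for each, edgeR). In edgeR 0 of 6 members passed and 0 had an unadjusted p under 0.05, where 0.311% of the genes were called; DESeq2 called 0 members and 0.124% of genes. No member separated the groups, which 7.5% of listed genes did with PIA+IL-27 lower and 23.0% with it higher. Without Control 1 all 6 values turned positive, from 0.63 for C1qa to 1.13 for Fcgr4. The authors' deposited table lists C3 and Fcgr4 as lower in this comparison, beside 8.57% of listed genes, and no member as higher, beside 13.3%.

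Other genes of the complement cascade were mostly highest in PIA, without passing the test. Of 24 further components, 9 are in the table and 7 were tested; in PIA against Control 6 of the 7 had a log2 fold change above 0, and in PIA+IL-27 against PIA 5 of 7 were below 0, with 0 called by edgeR in either. Their median log2 fold changes were 1.20 and -1.38, where those of all genes tested were -0.68 and 1.17. PIA separated above Control for 7 of the 9 and below it for 1, C1rb, where 17.2% and 16.5% of all listed genes separated in these directions. PIA+IL-27 separated below PIA for the same 7, against 16.5% of all listed genes. Some of these 7 rest on few reads. C6 had 9 and 1 reads in PIA, 1 and 0 in PIA+IL-27, and 0 and 1 in Control. Only the library factors set its PIA 2 value apart. Colec11 had 2 to 15 reads and C8g 5 to 17. C6 and Colec11 were not among the 7 tested. Factor B (Cfb), the protease of the alternative pathway, had 92.8 and 24.3 normalized read counts in PIA+IL-27, 667 and 280.4 in PIA, and 239 and 10.5 in Control. Its fitted change was -3.02 ± 0.962 in PIA+IL-27 against PIA (adjusted p = 0.155, edgeR). C2, which pairs with C4 in the classical pathway, had 42.8 and 43.7 in PIA+IL-27, 208 and 227 in PIA, and 77.4 and 24.8 in Control. In C2 the replicates lay close in PIA and in PIA+IL-27. Properdin (Cfp), the stabiliser of the alternative pathway enzyme, had 115 and 59.2 in PIA+IL-27, 183 and 187 in PIA, and 96.0 and 64.7 in Control. Masp2, a protease of the lectin pathway, had 31.3 and 24.3 in PIA+IL-27, 0 and 33.8 in PIA, and 3.92 and 19.0 in Control, so that PIA 1 was its lowest library.

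C1ra shares sequence with C1rb, and its read counts include fractions, so reads may be divided between the copies. C1rb had 16.7 and 0 normalized read counts in PIA+IL-27, 0.961 and 2.18 in PIA, and 28.4 and 9.52 in Control. Summed, C1ra and C1rb had 52.1 and 7.77 in PIA+IL-27, 302 and 82.9 in PIA, and 96.0 and 20.9 in Control. On the sum PIA 2 lay below Control 1, so the separation of PIA from Control that C1ra showed alone was lost. The separation of PIA+IL-27 from PIA remained. C1s1, the neighbour of C1ra on its chromosome and the gene of the other C1 protease, had 18.8 and 8.74 in PIA+IL-27, 181 and 61.1 in PIA, and 36.2 and 9.52 in Control, and was named after its values were seen. C4b likewise has a near-identical copy, C4a, which was not analysed here.

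Receptors and regulators of complement were mixed. Of 26 listed genes 10 are in the table and 8 were tested; 5 were above 0 in PIA against Control, 5 were below 0 in PIA+IL-27 against PIA, and edgeR called 0. Their medians were 0.94 and -1.38. Serping1, the C1 inhibitor, had 199 and 139.8 normalized read counts in PIA+IL-27, 694 and 352 in PIA, and 341 and 189 in Control. Itgam, the alpha chain of complement receptor 3, had 350.4 and 116 in PIA+IL-27, 1137 and 409 in PIA, and 740.5 and 90.5 in Control. Its partner Itgb2 had 116 and 24.3 in PIA+IL-27, 363 and 195 in PIA, and 189 and 43.8 in Control. Cd55, which breaks down the C3-cleaving enzyme on host cells, ran opposite, with 143 and 115 in PIA+IL-27, 66.3 and 60.0 in PIA, and 54.9 and 184 in Control.

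Of 22 listed genes that act with Fc receptors 5 are in the table and all 5 were tested. All 5 were above 0 in PIA against Control and below 0 in PIA+IL-27 against PIA, and edgeR called 0 in either. Their medians were 0.99 and -1.58. All 5 had every PIA+IL-27 value under every PIA value, as 16.5% of all listed genes did. The phosphatase gene Ptpn6 had 158 and 69.9 normalized read counts in PIA+IL-27, 277 and 254 in PIA, and 203 and 80.0 in Control. Vav1, an exchange factor downstream of immune receptors, had 125 and 35.9 in PIA+IL-27, 281 and 201 in PIA, and 189 and 53.3 in Control. Fgr, a tyrosine kinase of myeloid cells, had 6.26 and 7.77 in PIA+IL-27, 108 and 21.8 in PIA, and 26.4 and 10.5 in Control. The kinase gene Btk had 22.9 and 11.7 in PIA+IL-27, 49.97 and 25.1 in PIA, and 36.2 and 15.2 in Control.

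**Figure D4:**
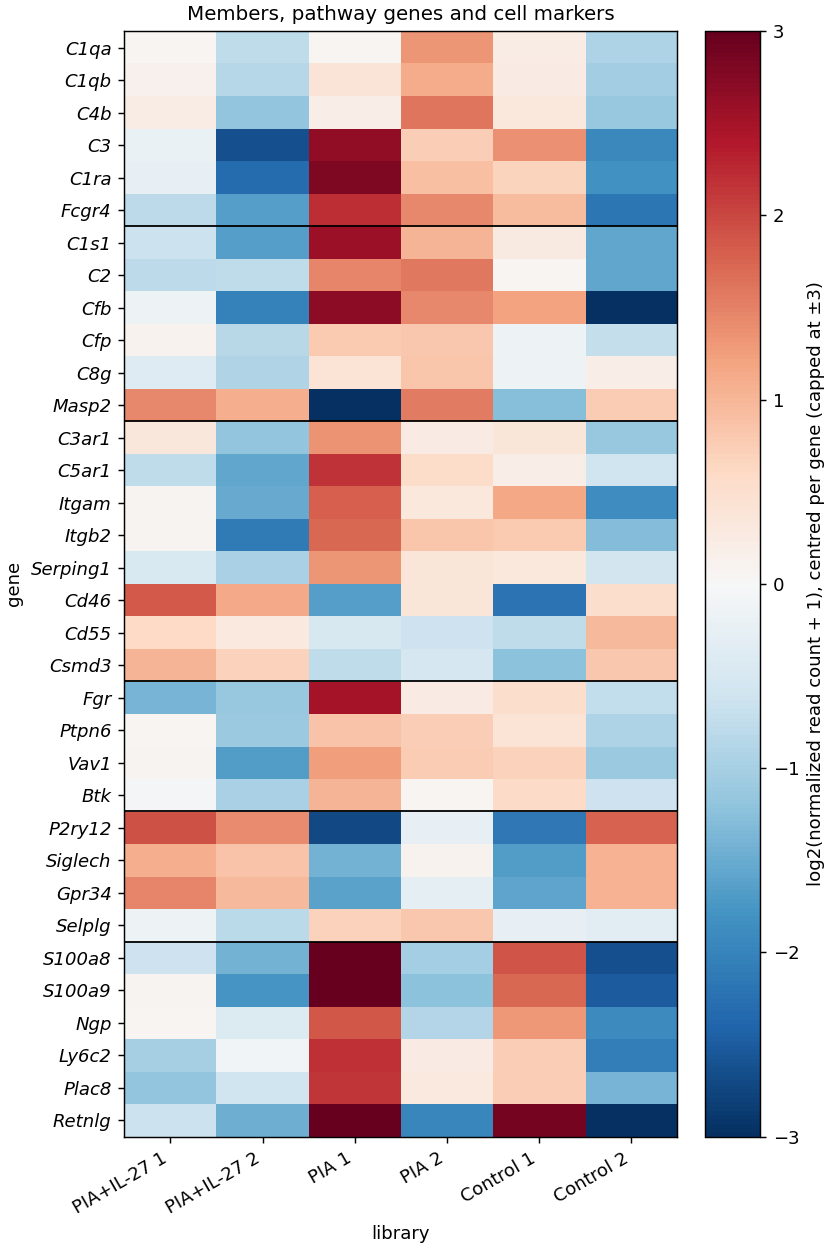
Centred log2(normalized read count + 1) of the members (top block), other complement components, complement receptors and regulators, Fc receptor pathway genes, microglial markers and neutrophil and monocyte markers with a mean of at least 10, in the 6 libraries; red is above and blue below the gene's own mean. The 6 members are above their mean in both PIA libraries and below it in Control 2 and PIA+IL-27 2, while P2ry12, Siglech and Gpr34 are highest in both PIA+IL-27 libraries and Control 2.

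Markers of cell types that express complement or Fc receptors varied between libraries too. Of 12 microglial markers 5 are in the table. P2ry12, a receptor of resting microglia, had 258 and 184 normalized read counts in PIA+IL-27, 9.61 and 56.7 in PIA, and 14.7 and 232 in Control, and Siglech and Gpr34 were likewise above both PIA libraries in both PIA+IL-27 libraries. Of all listed genes, 57.1% separated with PIA+IL-27 above PIA as these 3 did. Itgam and Selplg had the opposite direction, as 16.5% of listed genes did. Summed over the 5, microglial markers ranged from 473 to 849 in PIA+IL-27, 693 to 1322 in PIA, and 528 to 854 in Control. This sum mixes opposite directions, and Itgam made up most of it in PIA 1 (1137) and Control 1 (740.5). P2ry12, Siglech and Gpr34 alone summed to 413 and 303 in PIA+IL-27, 29.8 and 115 in PIA, and 33.3 and 361 in Control. P2ry12 and C1qa thus did not share an order: C1qa was near equal in PIA+IL-27 1, PIA 1 and Control 1 (627, 623 and 702), where P2ry12 was 258, 9.61 and 14.7. Neutrophil and monocyte markers, 8 of 10 in the table, summed to 77.7 to 125 in PIA+IL-27, 112 to 1581 in PIA, and 32.4 to 479 in Control. Of these the calprotectin gene S100a8 was highest in PIA 1 (598) and Control 1 (153), and Ly6g was at 0 in PIA+IL-27 1, PIA+IL-27 2 and PIA 2. S100a8 had a fitted log2 fold change of -3.92 ± 1.05 in PIA+IL-27 against PIA (adjusted p = 0.0430, edgeR). It was the only marker called of the 6 tested in this list, beside 0.435% of all genes tested. C3, C1ra and Fcgr4 also were highest in PIA 1. C3, C1ra and Fcgr4 stood above both PIA+IL-27 libraries in PIA 2 as well. So did 2 of the 8 markers: Plac8 had 16.7 and 25.2 in PIA+IL-27 and 48.0 in PIA 2, and Ly6c2 had 3.13 and 6.80 in PIA+IL-27 and 8.73 in PIA 2. PIA+IL-27 separated below PIA for these 2, as for 16.5% of all listed genes. The other 6 markers did not separate so, among them S100a8, with 26.1 and 14.6 in PIA+IL-27 and 19.6 in PIA 2. Border macrophage markers, 3 of 6 in the table, summed to 171 to 370.2 in PIA+IL-27, 113 to 164 in PIA, and 109 to 339.9 in Control. This sum also mixes directions. Ms4a7 had 32.7 and 22.9 in PIA, above Control (8.82 and 8.57), as 17.2% of listed genes separated. Lyve1 had 10.6 and 41.5 in PIA, below Control (44.1 and 80.9), as 16.5% did. Mrc1 overlapped between PIA and Control.

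Astrocyte markers, 3 of 6 in the table, did not share a direction. Gfap had 4066 and 4747 normalized read counts in PIA+IL-27, 17945 and 6035 in PIA, and 13757 and 5522 in Control. Aqp4 ran the other way, with 1786 and 1908 in PIA+IL-27, 1031 and 457 in PIA, and 643 and 1975 in Control. S100b was likewise above both PIA libraries in both PIA+IL-27 libraries, as were 57.1% of all listed genes. Meningeal fibroblast markers, 4 of 6 in the table (Col1a1, Col3a1, Col1a2 and Slc6a13), had every PIA+IL-27 value under every PIA value. So did C1qb, C3, C1ra, Fcgr4 and Serping1, and 16.5% of all listed genes. Their median log2 fold change was -1.27 in PIA+IL-27 against PIA, with 0 of 4 called by edgeR. They summed to 2969 to 4986 in PIA+IL-27, 7533 to 11078 in PIA, and 7320 to 10556 in Control. Endothelial markers, 2 of 5 in the table, did not share an order of libraries. Vwf had 810.2 and 161 in PIA+IL-27, 883 and 1300.5 in PIA, and 763 and 627 in Control. Ly6c1 had 91.8 and 228 in PIA+IL-27, 483 and 184 in PIA, and 280 and 173 in Control. For Ly6c1 PIA+IL-27 2 thus lay above PIA 2. The part of these cell types in the members' differences was not tested.

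Other listed genes were ranked by how near their course over the 6 libraries came to that of a member. Nearness was the root mean square difference of centred log2(normalized read count + 1) profiles, over 2649 other genes with a mean of at least 20 normalized read counts. For the mean of C1qa and C1qb the nearest were Ncf1, a subunit of the phagocyte oxidase (0.115), Unc93b1, a chaperone of endosomal Toll-like receptors (0.130), the transcription factor gene Irf8 (0.160), Lpxn (0.174) and the pore-forming gasdermin gene Gsdmd (0.202). C4b was at 0.241 from that profile, and Fcgr4, C1ra and C3 at 1.11, 1.29 and 1.40. Irf8, a factor that microglia need, had 146 and 83.5 normalized read counts in PIA+IL-27, 187 and 429 in PIA, and 163 and 67.6 in Control, and so followed C1qa with a high PIA 2. For Fcgr4 the nearest were Serpina3i (0.229), the integrin gene Itgal (0.354), Gm14548 (0.365), the oxidase subunit gene Ncf4 (0.417) and the interferon-induced GTPase gene Gbp2 (0.427). Gbp2 had 78.2 and 82.5 in PIA+IL-27, 590.0 and 420.0 in PIA, and 200 and 40.9 in Control. These likenesses describe 6 libraries that also share the composition differences given above.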

How the data were processed

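Total RNA of mouse hippocampus was sequenced in 6 libraries, grouped by the treatment in the labels. The members and lists were chosen with earlier results of these data known. Per the file headers, the authors deposited for each gene and library an expected count (11.3 to 13.3% not whole), a normalized read count, TPM and FPKM, and for each comparison a log2 fold change and a Q value. The deposited normalized read count, a signal, came out as the rounded-up read count over 1 factor per library (0.917 to 1.05) for 100% of values within 1e-06. Per the labels, libraries were made by a sequencing company, with the aligner, counter, build, strand and statistical test not given in the sources used here.

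After rounding, expected counts entered 1 edgeR 4.0.16 fit (R 4.3.3, quasi-likelihood test) of all 6 libraries with the authors' factors. The filter filterByExpr left 3216 genes and all 6 members. The spread was pooled over genes (biological coefficient of variation 0.597, infinite prior degrees of freedom). A member's SE and p-value in this fit therefore do not measure how its own replicates differed. P-values were adjusted by Benjamini-Hochberg over all genes tested, at 0.05, and the code was tested on simulated data. With the fitted spread, PIA against Control recovered 0% of simulated 2-fold changes and 4% of 4-fold changes. It recovered 36% of 8-fold and 70% of 16-fold changes. A member that did not pass is therefore not shown to be unchanged. Whole-library depth was estimated from read counts, FPKM and lengths of single-transcript genes (at least 2000 bases, FPKM of at least 3) at 14361400 to 15460400 reads. GC content and length came from GENCODE transcripts for 96.4% of genes. Alternatives were DESeq2 1.42.0, factors by TMM or by the median of ratios, no filter, a replicate block, fits of only the 4 libraries compared and each library left out. Removal of GC and length trends (loess) and a robust spread were chosen after seeing the data. Beyond the members, up to 4 tested genes per list were named by highest mean TPM, and a few as markers or neighbours after their values were seen. The lists were used without 1 gene, which is not analysed here.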

Additional observations from a re-analysis of the deposited data

How the results depend on the processing

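Each member was refitted under 14 alternatives, giving 84 values per comparison. In PIA against Control all 84 kept direction and none passed. In PIA+IL-27 against PIA 78 kept direction and call, 4 came to pass (C3, C1ra and Fcgr4 in DESeq2, Fcgr4 in the fit of 4 libraries) and 2 reversed, C1qa (0.45) and C1qb (0.27) with GC and length trends removed. In PIA+IL-27 against Control 71 kept direction and 13 reversed. With trends removed C1qa was 0.51, C1qb 0.51 and C4b 0.041. Leaving out 1 library each, the values ran from -0.52 to 0.63 for C1qa, -0.58 to 0.77 for C1qb, -0.96 to 0.81 for C4b, -3.24 to 1.01 for C3, -2.31 to 0.996 for C1ra and -2.18 to 1.13 for Fcgr4. Those above 0 came without Control 1 for all 6, and without PIA+IL-27 2 for C1qa, C1qb and C4b.

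Counts of genes called moved more. In PIA against Control 7 genes became 0 with TMM, median-of-ratios factors or trends removed, 2 in DESeq2 and 4 with a robust spread, and 0 to 7 with 1 library left out. In PIA+IL-27 against PIA 14 became 0 with TMM, median-of-ratios factors or trends removed, 276 in DESeq2 (3 members), 449 in the fit of 4 libraries (1 member) and 8 with a robust spread, and 0 to 7 with 1 library left out. In PIA+IL-27 against Control 10 became 0 with TMM, median-of-ratios factors or trends removed, 4 in DESeq2 and 1 in the fit of 4 libraries, and 0 to 7 with 1 library left out. The cause was not tested.

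The members' median in PIA+IL-27 against PIA was -3.51 with TMM, -3.44 with median-of-ratios factors and -3.44 in DESeq2, which bring the median of all genes near 0, and it was -2.95 to -1.53 with 1 library left out. In PIA+IL-27 against Control it was -1.72 with TMM and -1.40 to 0.90 with 1 library left out. In PIA against Control it was 0.70 to 3.10 with 1 library left out, the highest without Control 1.

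Replicate numbers were not shown to pair libraries: their deviations correlated at 0.0937 between PIA and Control, -0.306 between PIA+IL-27 and PIA, and 0.0991 between PIA+IL-27 and Control. With the replicate block 3, 4 and 3 genes were called in PIA against Control, PIA+IL-27 against PIA and PIA+IL-27 against Control, with 0 members in each, and C1qb stood at 0.018 in the last. C3, C1ra and Fcgr4 had 7.77 to 10.7 normalized read counts in PIA+IL-27 2 and 5.71 to 18.1 in Control 2, so their values there rest on few reads.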
